A study of Mus musculus and Rattus norvegicus with 43 samples.

Results

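Hedgehog pathway genes, 9 in number, were followed in mouse striatum: the ligand Shh, the receptors and binding proteins Boc, Ptch1 and Hhip, the transducers Smo and Sufu, and the transcription factors Gli1, Gli2 and Gli3. These 9 genes were taken by symbol from the 54532 gene rows of the mouse count table, and all 9 were found. The set was chosen by results of the same libraries, since Gli1 had stood among the leading genes of N-TAF miRNA against control. For the 9 genes, values and counts of calls in that comparison, and in C/N-TAF against N-TAF miRNA, are therefore a description. No member's p is given for either. Genes outside the 9 are given with their adjusted p, and their lists were also chosen with earlier results of these data known.

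The mice were C57BL/6, were injected on postnatal day 0 and gave the striatum of one hemisphere at 4 months of age. The comparison was between 8 mice that received the N-TAF MiRNA (N), 5 that received the C/N-TAF MiRNA (CN) and 8 that received a control miRNA. All 3 groups thus shared the neonatal injection and differed in the miRNA named by their labels. N-TAF and C-TAF are forms of Taf1, a core component of the TFIID complex that starts transcription by RNA polymerase II, and N-TAF is the form of neurons. The labels do not give a vector, a promoter or the cells that were reached.

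Hedgehog ligands bind Patched receptors and thereby release Smoothened, which acts in the primary cilium and turns the Gli proteins from repressors into activators. Gli1, Ptch1 and Hhip are transcribed in response, so that Gli1 is widely used as a readout of the pathway, while Ptch1 and Hhip restrain it. In the adult rodent forebrain Shh is made by sets of neurons, and Gli1 marks astrocytes and progenitors of the subventricular zone.

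The stretch of 250 bases before the annotated start is shown for Ptch1 (chr13:63565736-63565985, minus strand) and Hhip (chr8:80058009-80058258, minus strand), the established targets whose levels are set beside Gli1 below. Both are from RefSeq on build GRCm38.p6 and are written 5′ to 3′ in the direction of the gene.
Ptch1: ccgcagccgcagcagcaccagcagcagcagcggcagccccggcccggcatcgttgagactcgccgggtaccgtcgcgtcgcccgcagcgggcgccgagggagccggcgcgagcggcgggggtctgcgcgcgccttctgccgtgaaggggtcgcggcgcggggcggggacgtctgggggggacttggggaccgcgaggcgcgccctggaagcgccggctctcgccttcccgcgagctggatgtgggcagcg
Hhip: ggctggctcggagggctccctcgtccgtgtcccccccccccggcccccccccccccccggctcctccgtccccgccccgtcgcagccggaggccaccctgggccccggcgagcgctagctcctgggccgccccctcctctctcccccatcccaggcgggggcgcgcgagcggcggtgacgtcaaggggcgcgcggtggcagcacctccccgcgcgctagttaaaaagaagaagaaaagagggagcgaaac
The Gli binding motif TGGGTGGTC, whose reverse complement is GACCACCCA, was searched in these windows, and no letters are in capitals because neither held it. A promoter entry was matched for 6 of the 9 genes (Ptch1, Hhip, Smo, Sufu, Gli2 and Gli3), and none of the 6 windows held the motif on either strand. Of all 32851 promoter windows of the same length, 74 did (0.225%). The shorter TGGGTGG, which lies inside the first motif, was in none of the 6 and in 8.11% of all windows. Both windows were rich in G and C, at 78.4% for Ptch1 and 76.0% for Hhip, where the median of all windows was 52.4%.

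Libraries held 25.4 to 30.9 M (mega) counts in N, 26.7 to 35.6 M in CN and 24.9 to 33.0 M in control mice. Levels are CPM, read counts divided by a library total that TMM scaling makes comparable between libraries. Taf1, the targeted gene, averaged 97.5 ± 6.19 CPM in N (SD, n = 8), 90.7 ± 22.6 in CN (n = 5) and 98.6 ± 5.53 in control mice (n = 8), and its groups overlapped. CN library 2 was at 50.6 CPM, and the 4 other CN libraries averaged 101 ± 3.73 CPM. Between CN and control mice the log2 fold change of Taf1 was -0.12 (SE 0.113, adjusted p = 0.70 by edgeR). A fall of the gene total was thus not called. The gene count adds all Taf1 transcripts, so it does not measure either form alone. CN library 2 stood apart from the others. The deviation of its genes from the control mean ran against exonic length (Spearman's rho = -0.37 across 19403 genes, a description). The 20 other libraries lay between -0.22 (N library 4) and 0.27 (CN library 1), and the 8 control libraries between -0.11 and 0.07. CN log2 fold changes are given without CN library 2 as well. CN library 1, at the other end, stays in those values. For spiny neurons the 8 markers summed to 5440 CPM or more in every library.

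Per kilobase of exon, the 9 genes kept the same order of mean level in all 3 groups. Ptch1 was highest, at 7.56 ± 0.579 CPM per kilobase in N, 6.86 ± 1.94 in CN and 7.67 ± 0.573 in control mice. Sufu, Hhip, Gli3 and Smo followed at mean levels of 3.66 to 3.01 in N, 3.25 to 2.74 in CN and 3.41 to 2.64 in control mice. Boc, Shh and Gli2 came next, and Gli1 was lowest, at 0.752 ± 0.252 in N, 0.293 ± 0.0828 in CN and 0.371 ± 0.0785 in control mice. Neighbours in this order overlapped between libraries except at Ptch1 and Sufu and at Smo and Boc in every group. Gli2 and Gli1 did not overlap in CN or in control mice, whereas in N mice the ranges of this pair met, at 0.706 to 1.13 for Gli2 and 0.475 to 1.09 for Gli1.

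**Figure D1:**
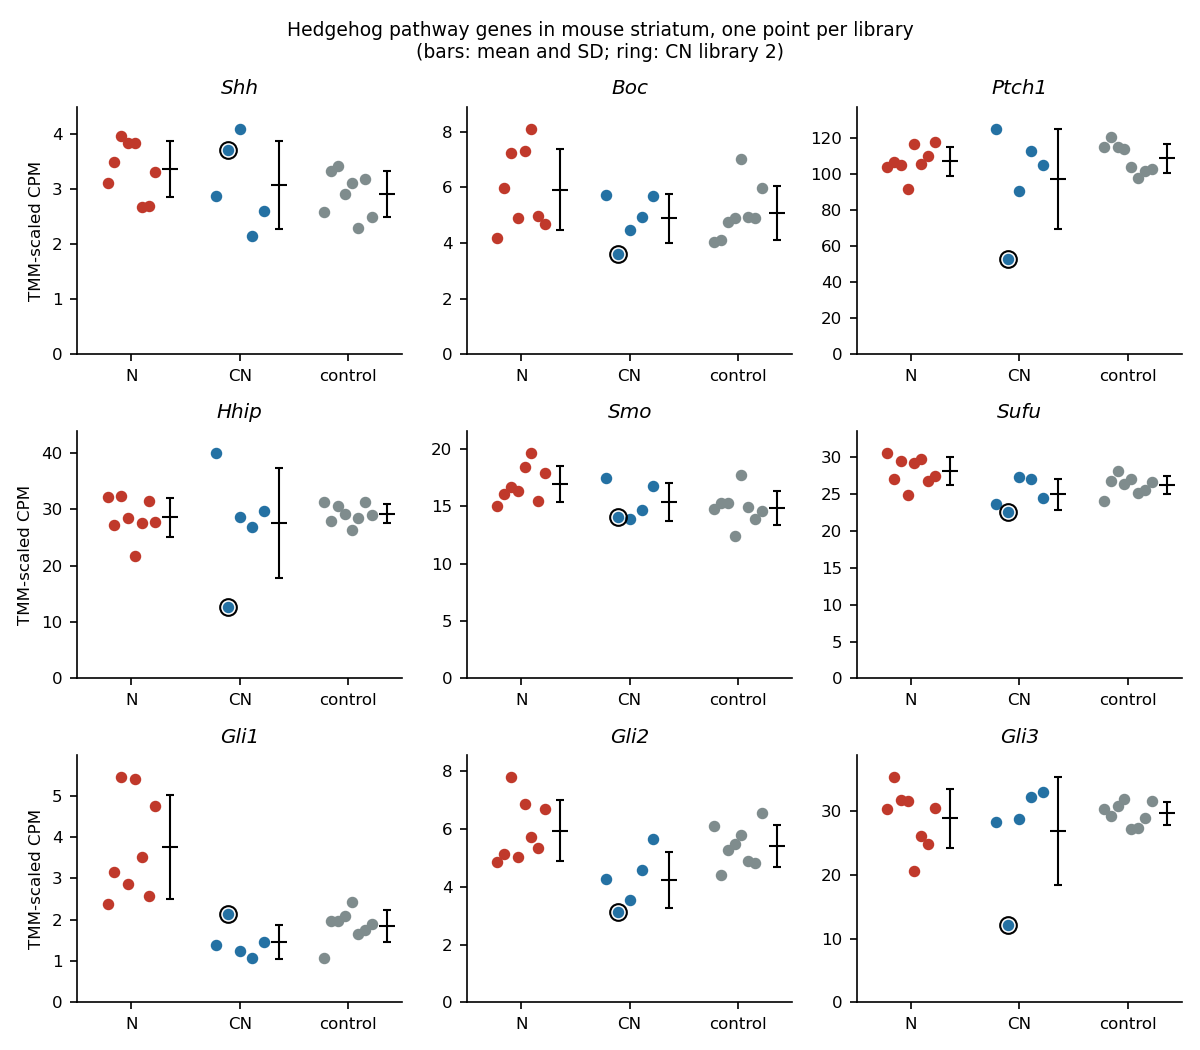
TMM-scaled CPM of each of the 9 genes (y axis, from 0) in every library of the N, CN and control groups (x axis), with the group mean and SD as black bars and a ring around CN library 2. Gli1 lies between 2.37 and 5.44 CPM in N mice, above all 5 CN libraries and above 7 of the 8 control libraries, while the other genes overlap between groups.

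Shh, the secreted ligand, was a rare transcript with 55 to 132 counts per library. It stood at a lowest, median and highest level of 2.67, 3.40 and 3.96 CPM in N mice and at 2.87, 3.70, 4.08, 2.14 and 2.60 CPM in CN libraries 1 to 5, against 2.29, 3.01 and 3.41 CPM in control mice. Of the 8 N libraries 4 lay above every control, and the groups overlapped. The log2 fold change was 0.21 (SE 0.136) for N against control. It was 0.08 for CN against control (SE 0.154, 95% interval -0.24 to 0.40, adjusted p = 0.87 by edgeR), and 0.003 without CN library 2. Its exons share 446 and 361 bases with a pair of genes on the opposite strand, which had at most 40 and 62 counts, and the strand setting of the counting is not given in the sources used here.

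Boc, a co-receptor that binds Shh together with Ptch1, ran at 4.17, 5.47 and 8.08 CPM (lowest, median, highest) in N mice and at 5.71, 3.61, 4.48, 4.94 and 5.68 CPM in CN libraries 1 to 5, against 4.05, 4.90 and 7.01 CPM in control mice. The groups overlapped, with 3 N libraries above all controls and 4 below the control mean. Boc had a log2 fold change of 0.22 (SE 0.147) for N against control. In CN against control it was -0.06 (SE 0.168, adjusted p = 0.91 by edgeR), and 0.03 without CN library 2.

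Ptch1, the receptor that holds Smoothened inactive and is itself a Gli target, was the most abundant of the 9 genes, with 1785 to 4036 counts per library. Its levels were 92.1, 106 and 118 CPM (lowest, median, highest) in N mice and 125, 53.3, 90.8, 113 and 105 CPM in CN libraries 1 to 5, against 98.2, 109 and 121 CPM in control mice. N and control libraries covered nearly the same range, and CN library 2 alone was far below. Between N and control mice the log2 fold change was -0.02 (SE 0.109, 95% interval -0.25 to 0.20). Between CN and control mice it was -0.16 (SE 0.125, adjusted p = 0.66 by edgeR) with all libraries and -0.003 (95% interval -0.15 to 0.14) without CN library 2. This CN value ranged from -0.263 to -0.003 when each library was left out in turn.

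Hhip, a membrane protein that binds and sequesters the ligand and is likewise a Gli target, ran at 21.7, 28.1 and 32.3 CPM (lowest, median, highest) in N mice and at 39.9, 12.7, 28.7, 26.9 and 29.7 CPM in CN libraries 1 to 5, against 26.4, 29.1 and 31.3 CPM in control mice. CN libraries 1 and 2 were the highest and the lowest of all 21. Hhip had a log2 fold change of -0.03 (SE 0.136) for N against control. In CN against control it was -0.09 (SE 0.156, adjusted p = 0.85 by edgeR), and it turned to 0.10 (SE 0.093) without CN library 2.

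Smo, the transducer that Ptch1 restrains, stood at 15.0, 16.5 and 19.6 CPM (lowest, median, highest) in N mice and at 17.5, 14.1, 13.9, 14.7 and 16.8 CPM in CN libraries 1 to 5, against 12.4, 14.9 and 17.7 CPM in control mice. All 8 N libraries lay above the control mean of 14.9 ± 1.49 CPM, and 3 lay above every control library. This gave a log2 fold change of 0.19 (SE 0.075, a fold of 1.14) for N against control. For CN against control it was 0.05 (SE 0.085, adjusted p = 0.85 by edgeR), and 0.08 without CN library 2.

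Sufu, which binds Gli proteins and keeps them out of the nucleus, had the lowest coefficient of variation of the 9 in each group, 6.72% in N, 8.39% in CN and 4.81% in control mice. Its levels were 24.9, 28.4 and 30.5 CPM (lowest, median, highest) in N mice and 23.6, 22.6, 27.3, 27.0 and 24.4 CPM in CN libraries 1 to 5, against 24.1, 26.5 and 28.1 CPM in control mice. Of the 8 N libraries 7 lay above the control mean and 5 of 5 CN libraries lay below the N mean. The log2 fold change was 0.10 (SE 0.055) for N against control and -0.07 (SE 0.063, adjusted p = 0.70 by edgeR) for CN against control, which was -0.03 without CN library 2.

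Gli1, the activator that is both effector and target of the pathway, had 27 to 173 counts per library. Its log2 fold changes were the furthest from 0 among the 9 genes in N against control and in CN against N. In N mice it stood at 2.37, 3.16, 5.44, 2.86, 5.40, 3.51, 2.57 and 4.75 CPM in libraries 1 to 8. In CN mice it stood at 1.40, 2.15, 1.24, 1.07 and 1.46 CPM in libraries 1 to 5. In control mice it stood at 1.07, 1.96, 1.96, 2.08, 2.44, 1.66, 1.75 and 1.90 CPM in libraries 1 to 8. Of the 8 N libraries 7 lay above every control, N library 1 (2.37 CPM) lay just below control library 5 (2.44 CPM), and all 8 N libraries lay above all 5 CN libraries. Group means were 3.76 ± 1.26 CPM in N, 1.46 ± 0.414 in CN and 1.85 ± 0.392 in control mice.

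For N against control the log2 fold change of Gli1 was 1.01 (SE 0.196), a fold of 2.02, and it ranged from 0.914 to 1.085 when each library was left out in turn. Gli1 led the choice of the genes by this comparison, so these values are a description. Their SE takes no account of that choice. For CN against control it was -0.35 (SE 0.232, 95% interval -0.83 to 0.13, adjusted p = 0.62 by edgeR), with 4 of 5 CN libraries below the control mean. Without CN library 2 this value was -0.53 (SE 0.235, adjusted p = 0.84 by edgeR), which did not pass the test. For CN against N the log2 fold change was -1.36 (SE 0.233), and it was -1.54 (SE 0.235) without CN library 2. This comparison shares the N libraries with the one that chose the genes and is likewise a description. The exons of Gli1 share 62 bases with Arhgap9 and 265 with a predicted gene on the opposite strand, which had at most 39 and 2 counts in any library.

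Gli2, the main activator of the first response in development, ran at 4.85, 5.52 and 7.77 CPM (lowest, median, highest) in N mice and at 4.27, 3.14, 3.55, 4.58 and 5.65 CPM in CN libraries 1 to 5, against 4.41, 5.37 and 6.56 CPM in control mice. Of the CN libraries 3 lay below every control, and the fold change for CN against control was 0.783 (log2 -0.35, SE 0.145, 95% interval -0.65 to -0.05). It did not pass the test over all genes (adjusted p = 0.59 by edgeR), and without CN library 2 the log2 value was -0.26 (adjusted p = 0.85 by edgeR). For N against control the log2 fold change was 0.13 (SE 0.125).

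Gli3, which in the absence of ligand is processed to the main repressor, stood at 20.6, 30.5 and 35.3 CPM (lowest, median, highest) in N mice and at 28.3, 12.1, 28.8, 32.2 and 33.0 CPM in CN libraries 1 to 5, against 27.2, 29.8 and 32.0 CPM in control mice. The N group reached beyond the control range on both sides, with 1 library above and 3 below it. Gli3 had a log2 fold change of -0.04 (SE 0.139) for N against control. Between CN and control mice it was -0.14 (SE 0.159, adjusted p = 0.75 by edgeR), and 0.05 without CN library 2. Gli3 exons share 188 bases with the predicted gene Gm6556 on the opposite strand, which had 158 to 440 counts per library. Gli3 itself had 406 to 1146 counts, and the strand setting of the counting is not given.

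With CN set against N, all 9 log2 fold changes lay below 0 with all libraries, which is a description for the same reason as for Gli1. Gli2 was at -0.48 (SE 0.145), with 4 of 5 CN libraries below every N library. Sufu was at -0.17 (SE 0.063) and Boc at -0.28 (SE 0.169), with all 5 CN libraries below the N mean for each. Smo, Ptch1 and Shh were at -0.14, -0.14 and -0.13, and Gli3 and Hhip at -0.10 and -0.05. Without CN library 2, the values of Ptch1, Gli3 and Hhip were 0.02, 0.09 and 0.13, so that 6 of the 9 lay below 0.

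**Figure D2:**
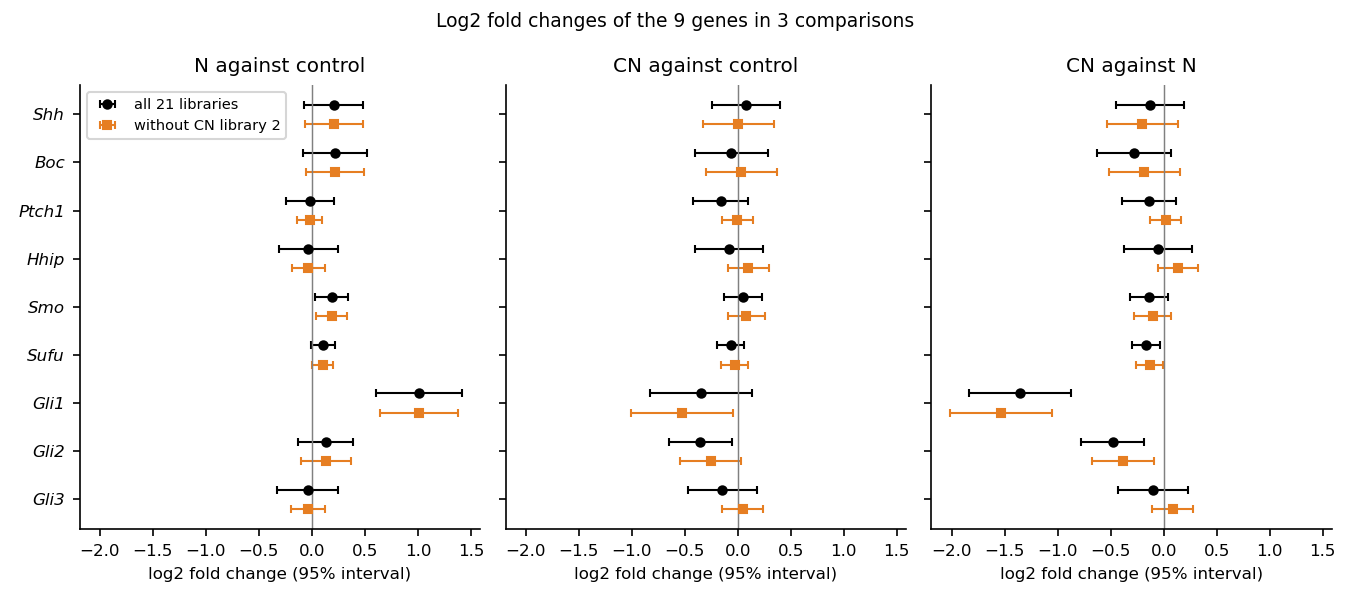
Log2 fold change with its 95% interval (x axis) of each of the 9 genes (y axis) for N against control, CN against control and CN against N, from the fit to all 21 libraries (black circles) and without CN library 2 (orange squares). Gli1 is at 1.01, -0.35 and -1.36 with all libraries, and Ptch1, Hhip and Gli3 lie close to 0 in N against control. The intervals take no account of the choice of the genes by N against control.

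In the fit to all 21 libraries, 0 of the 9 genes were called at an adjusted p under 0.05 in any of the 3 comparisons by edgeR, and 0% of the 19413 genes tested were called in each. The number of genes at an unadjusted p under 0.05 was 1822 for N against control, 1623 for CN against control and 2294 for CN against N. Without CN library 2, 1 of the 9 (Gli1) was called for N against control, beside 1.0% of 19653 genes. For CN against N 1 of the 9 (Gli1 again) was called, beside 0.356% of genes, and for CN against control 0 of 9 were, beside 0%. DESeq2 on all libraries called Gli1 and none of the other 8 in the same pair of comparisons, beside 0.489% of genes for N against control and 0.927% for CN against N, and it called no gene for CN against control. Since Gli1 led the choice of the 9 genes, its calls in N against control and CN against N restate that choice, and nothing is read from them. Groups did not overlap for 0 of the 9 genes in N against control (0.211% of all genes tested) and for 0 of 9 in CN against control (0.268%). In CN against N they did not overlap for 1 of 9, Gli1 (0.531%). Over the 9 genes the median log2 fold change was 0.13 for N against control, where the median of all genes was 0.007, and -0.09 for CN against control, where it was 0.001. The CN median of the 9 was 0.003 without CN library 2, with 5 above and 4 below 0.

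The libraries also differed in reads of Ambn, an enamel matrix gene, which were at 2.03 CPM or more in 3 N, 4 CN and 5 control libraries and at 0.0762 CPM or less in 5 N, 1 CN and 3 control libraries. Among libraries at 2.03 CPM or more of Ambn, Gli1 ran from 2.37 to 3.16 CPM in N, from 1.07 to 2.15 in CN and from 1.07 to 1.96 in control mice. Among the others it ran from 2.86 to 5.44 CPM in N, was 1.24 in the single CN library and ran from 1.75 to 2.44 in control mice. The N mean of Gli1 was 2.70 CPM in the first class and 4.39 in the second, and the control mean was 1.71 and 2.09 CPM. These ranges describe the libraries that the choice of genes used, and the part of other tissue in them was not tested.

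The 51 other genes of the pathway were grouped by role, and 50 of them were expressed highly enough to be tested (the ligand gene Dhh was not). None of the 50 was called in the fit to all libraries by edgeR in any comparison, and no gene of all those tested was. For N against control, CN against control and CN against N, 6, 2 and 6 of the 50 had an unadjusted p under 0.05. Over all 19413 genes these numbers were 1822, 1623 and 2294. The median log2 fold change of the 50 was 0.05 for N against control, with 35 above and 15 below 0, where the median of all genes was 0.007. For CN against control it was -0.01, with 21 above and 29 below 0, where the median of all genes was 0.001. Without CN library 2 CN against control turned to a median of 0.03, 30 above and 20 below 0.

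Among regulators of Smoothened and the ciliary membrane, Gpr161 had the smallest p. Gpr161, a ciliary receptor that holds the pathway off by raising cyclic AMP, stood at 10.6 to 16.3 CPM in N mice and at 9.99, 6.57, 9.21, 9.95 and 12.5 CPM in CN libraries 1 to 5, against 8.85 to 11.1 CPM in control mice, so that N and control ranges met at their edges. The log2 fold change for N against control was 0.38 (SE 0.108, adjusted p = 0.22 by edgeR), and without CN library 2 it was 0.38 with adjusted p = 0.037. It was the 1 gene of the 50 called in that fit, beside 197 of all 19653 genes (1.0%). The library left out belongs to neither compared group, and with it no gene was called for N against control. With all libraries, 9 of the 11 genes of the role of Gpr161 lay above 0 in N against control with a median of 0.06.

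Genes of Gli processing and of ciliary transport gave smaller values. Kif7, the ciliary kinesin that organises Gli and Sufu at the cilium tip, was at 0.28 (SE 0.108, adjusted p = 0.39 by edgeR) for N against control, and Stk36, a kinase related to fly Fused, was at 0.27 (SE 0.128, adjusted p = 0.53). Ulk3, another kinase of Gli proteins, was at -0.18 (SE 0.083, adjusted p = 0.59 by edgeR) for CN against control, and at -0.19 without CN library 2. The intraflagellar transport genes Ift122 and Ift88 were at 0.19 (SE 0.065) and 0.14 (SE 0.055) for N against control, with adjusted p = 0.34 and 0.39 by edgeR. The median over 12 processing genes was 0.04 for N and -0.01 for CN against control, and over 10 transport genes 0.03 and 0.001. These CN medians were 0.03 and 0.07 without CN library 2.

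On the ligand side, Scube1, a secreted protein of the family that helps release hedgehog from the cell, was at -0.55 (SE 0.300, adjusted p = 0.60 by edgeR) for CN against control, where 6 of the 7 ligand genes tested lay below 0 with a median of -0.29. That median was -0.07 without CN library 2, still with 6 of 7 below 0, and Scube1 was at -0.70 (adjusted p = 0.84 by edgeR). Ihh, a sister ligand of Shh, had less than 1 CPM in every library and was at -0.87 (SE 0.511, adjusted p = 0.61 by edgeR) for CN against control, and at -0.76 without CN library 2. The co-receptors Cdon and Gas1 were at log2 fold changes of 0.12 and 0.13 for N and -0.19 and -0.01 for CN against control, with adjusted p of 0.62 or more by edgeR for each. Leaving out CN library 2 put Cdon at -0.03 and Gas1 at -0.08 for CN against control. Of 6 other genes reported as Gli targets, 3 lay above and 3 below 0 in N against control, from -0.24 for Foxf1 to 0.12 for the cyclin gene Ccnd1, with a median of -0.03.

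**Figure D3:**
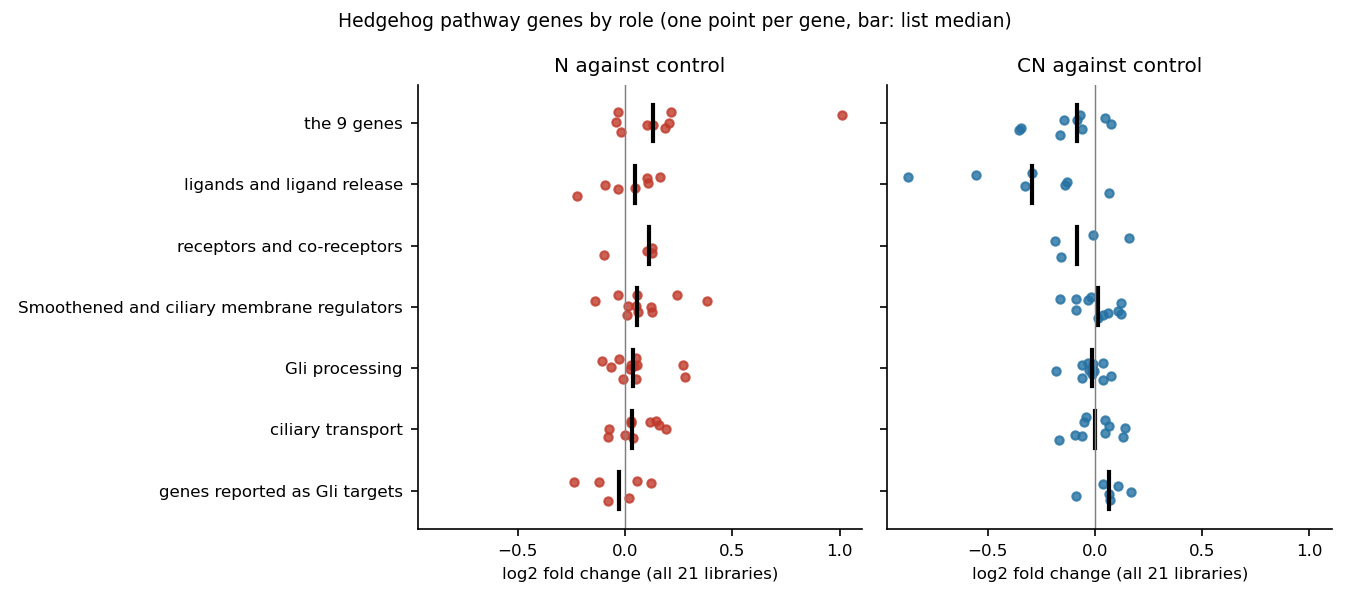
Log2 fold changes from the fit to all 21 libraries (x axis) of the 9 genes and of 6 role lists of other hedgehog pathway genes (y axis), for N against control (left) and CN against control (right), with one point per gene and the list median as a bar. Gli1, at 1.01, lies apart from every other point in N against control, and the list medians there lie between -0.03 and 0.13. The 9 genes were chosen because Gli1 was among the leading genes of that comparison.

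Within groups most pairs of the 9 genes had a low correlation. Gli1, Shh and Boc had as few as 27, 55 and 102 counts in a library. Counting noise in such genes limits r, so low values do not tell whether the genes vary apart. Deviations of log2 CPM from the group mean were compared over 20 libraries, without CN library 2, as a description over animals that share group means and scaling. Of the 36 pairs of genes, 4 had Pearson's r above 0.5: Boc with Gli1 (0.62), Boc with Smo (0.61), Boc with Gli2 (0.52) and Gli1 with Gli2 (0.52). Gli1 was at 0.21 with Ptch1 and at -0.31 with Hhip, and the median over all pairs was 0.002. With CN library 2 included, the pairs among Ptch1, Hhip and Gli3 were at 0.695 to 0.814, against -0.157 to 0.314 without it, and the median over all pairs was 0.222. Gli1 was then at 0.398 with Boc, 0.269 with Gli2, -0.231 with Ptch1 and -0.474 with Hhip.

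**Figure D4:**
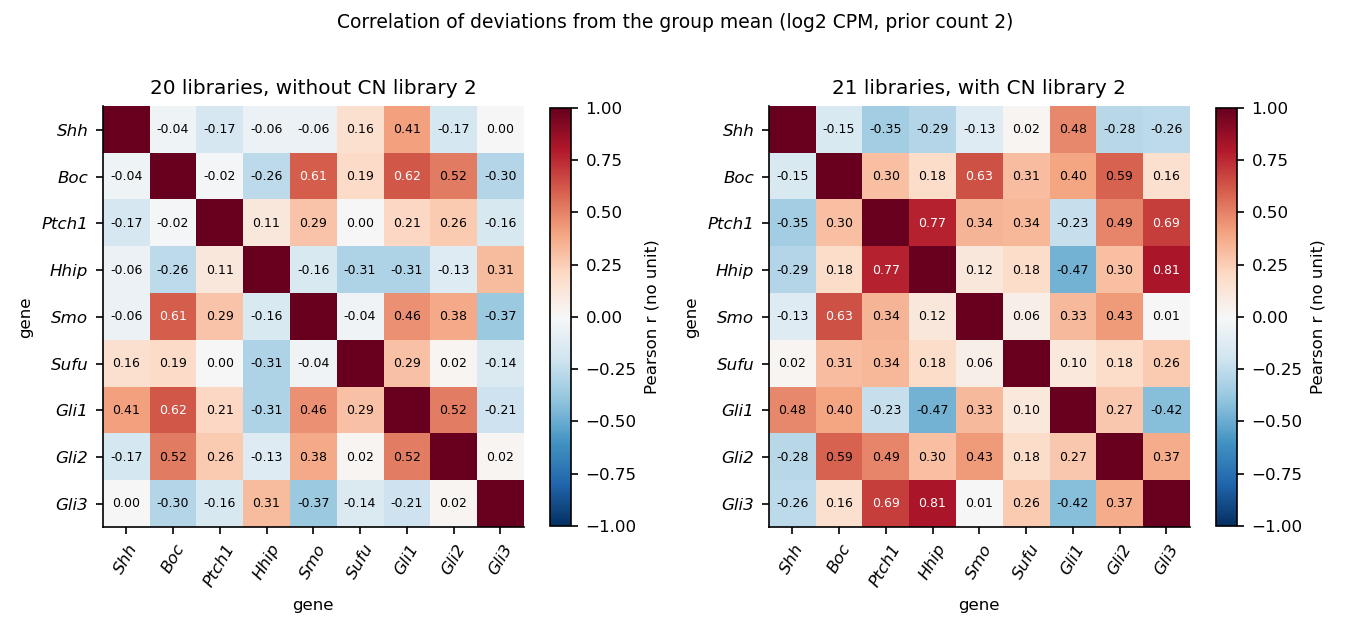
Pearson's r between deviations of the 9 genes from their group means (color scale from -1 to 1, both axes list the genes), over 20 libraries without CN library 2 (left) and over all 21 (right). Boc, Smo, Gli1 and Gli2 share the positive values on the left, and the strong values among Ptch1, Hhip and Gli3 appear on the right.

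The genes most like Gli1 within groups, among 13683 with a mean of at least 1 CPM, were Slc25a18 (r = 0.89 over 20 libraries), Igsf1 (0.87), Sparc (0.87), Slc27a1 (0.85) and Slc22a4 (0.84). Slc25a18 encodes a mitochondrial glutamate carrier, Sparc a secreted matrix glycoprotein, Slc27a1 a fatty acid transporter and Slc22a4 an organic cation transporter. Slc25a18 averaged 23.7 ± 5.67 CPM in N, 16.0 ± 5.12 in CN and 13.3 ± 1.83 in control mice. The coefficient of variation of Gli1 was 33.5% in N, 28.3% in CN and 21.1% in control mice. Since r pools the groups without scaling each, the N libraries, by which Gli1 was chosen, weigh most in its list. For Ptch1 the closest were Bend4 (0.93), Ankhd1 (0.92), Mga (0.91), Tnrc6b (0.88) and Kmt2a (0.88), of which Kmt2a encodes a histone methyltransferase and Tnrc6b a scaffold of microRNA silencing. For Hhip they were Edem1 (0.86), Cadm2 (0.84), Edil3 (0.84), Tbc1d5 (0.84) and Ptprd (0.82), among them the neuronal adhesion gene Cadm2 and the receptor phosphatase Ptprd. With CN library 2 included, r was 0.953 to 0.968 for the genes of Ptch1, 0.853 to 0.953 for those of Hhip and 0.854 to 0.900 for those of Gli1. Exonic length is 14185 bases for Ptch1, 9076 for Hhip and 4995 for Gli1, and its part in these lists was not tested. The 3 lists had no gene in common, but each names only 5 of 13683 genes, so this does not tell whether the patterns are related.

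Levels of marker genes of other cells were also compared between the groups, and in the fit to all libraries no marker gene was called. In bulk tissue a change in the number of cells of a type and a change in RNA per cell cannot be told apart. The 10 genes of subventricular progenitors and neuroblasts summed to 175 to 312 CPM in N, 136 to 223 in CN and 143 to 178 in control mice, and all 10 lay above 0 in N against control (median log2 fold change 0.52), as they did in CN against control (median 0.30 with and 0.31 without CN library 2), with 0 called by edgeR in either. Without CN library 2, 3 of these 10 were called higher in N against control. That fit called 197 of all 19653 genes (1.0%), 66 of them higher and 131 lower. The 8 astrocyte genes summed to 4380 to 5260 CPM in N, 3460 to 4900 in CN and 4400 to 5150 in control mice, with a median log2 fold change of 0.08 in N against control, and 1 of 8 rose there without CN library 2. In that fit 4 of 5 genes of cholinergic interneurons, 3 of 4 of endothelium, 1 of 4 of fibroblasts and 1 of 8 of spiny neurons fell, the 1 muscle gene tested rose, and the 7 other lists held no call. The 6 choroid plexus genes ran from 29.9 to 3660 CPM in N, from 117 to 501 in CN and from 25.4 to 1010 in control mice. No gene of the progenitor, astrocyte or choroid plexus lists was at 0 in any library, while 2 of the 3 muscle genes were at 0 in some. Within groups, r with Gli1 had a median of 0.45 over the astrocyte genes (from -0.23 to 0.73), 0.19 over the progenitor genes and 0.35 over the choroid plexus genes, and of -0.57 over the spiny neuron genes and -0.50 over the cholinergic genes. Over the choroid plexus genes the median r was 0.82 with Boc and 0.59 with Smo. The part of these cells in the levels of Gli1, Boc and Smo was not tested.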

How the data were processed

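Per the labels' protocols, Trizol RNA of mouse striatum was sequenced on an Illumina NovaSeq. The authors deposited raw read counts per gene, made with STAR and featureCounts per the submitters' processing notes. Those give no versions, list edgeR as well, and name GRCh38, a human build, for these mouse libraries. The build is thus unsettled, and coordinates come only from the RefSeq promoter table. Symbols matched 54409 of 54532 rows, and the 123 others held 0.07% of counts. Library totals were 24.9 to 35.6 M (mega) counts, and precision for rare genes such as Gli1 is limited by counting and by the number of animals.

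From the counts as deposited, edgeR 4.0.16 (R 4.3.3) fitted the 21 libraries in 3 groups by robust quasi-likelihood, with TMM scaling and filterByExpr. P-values were Benjamini-Hochberg adjusted over 19413 genes, and those under 0.05 were called. The SE is the absolute log2 fold change over the square root of F. Alternatives used DESeq2 1.42.0, limma-voom (limma 3.58.1), DESeq2 size factors, no filter, fewer libraries and the Ambn class (cut at 0.5 CPM) as a covariate. Limma-voom without CN library 2, and the Ambn class without it, were chosen after seeing the data. The fit was tested on simulated counts. Exonic lengths and overlaps were the union of exons in GENCODE M21. Likeness used log2 CPM with a prior count of 2.

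The 9 genes and all lists were chosen with earlier results of these data known. Named were Taf1, the 9 genes, up to 4 genes of smallest p per role list, and 5 genes most like each of Gli1, Ptch1 and Hhip, and some genes under this rule are not reported here. Marker lists covered 14 cell types or tissues. Replicates were numbered in the order of the records. The p-values set each difference against the spread between these libraries, which was estimated over all 3 groups. Those of N against control thus also depend on the CN libraries, except in the fit to the compared groups alone. One library without a stated injection entered no comparison. The rat libraries of the series were not analysed here.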

Additional observations from a re-analysis of the deposited data

Results flagged for a closer look

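Of 27 sets of values (9 genes in 3 groups), 2 held a library whose gap to its neighbour was large against the range of its group, where chance gives about 1 in 20. Hhip in N library 5 was at 21.7 CPM, below all other N libraries. Gli3 in CN library 2 was at 12.1 CPM, below all other CN libraries, and the same library was the lowest of its group for Ptch1, Hhip, Boc, Sufu and Gli2. In the mouse library whose label names no injection, which no comparison used, Gli3 was at 34.9 CPM, above the highest control library at 32.0 CPM.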

How the results depend on the processing

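The count of the 9 genes called was 0 with all libraries and 1 (Gli1) in 7 of 30 alternatives, both for N against control and for CN against N, and 0 in all 30 for CN against control. Where Gli1 was called, the share of all genes called was 0.0814% to 1.5% for N against control and 0.0200% to 0.927% for CN against N. For N against control it was 1 with DESeq2, with a fit to the compared groups alone, without CN libraries 1 and 2, and without CN library 2 under limma-voom or with the Ambn class, and it ranged from 0 to 1 when single libraries were left out (1 without N library 1 or CN library 2). For CN against N it was 1 with DESeq2, with no filter, without CN libraries 1 and 2 and without CN library 2 under limma-voom or with the Ambn class, and from 0 to 1 when single libraries were left out, again N library 1 and CN library 2. The count of the other pathway genes called for N against control was 1 (Gpr161) with the compared groups alone, without CN libraries 1 and 2 and without CN library 2 under limma-voom, and 0 to 1 when single libraries were left out.

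For CN against control, 14 values of single genes changed sign, all of them small. Leaving out single libraries gave -0.042 to 0.186 for Shh, -0.121 to 0.033 for Boc, -0.252 to 0.1 for Hhip and -0.229 to 0.045 for Gli3. Without CN library 2, limma-voom gave -0.039 for Shh, 0.034 for Boc, 0.077 for Hhip and 0.046 for Gli3, and the Ambn class as a covariate gave 0.07 for Boc, 0.087 for Hhip and 0.036 for Gli3. Without CN libraries 1 and 2, Sufu was at 0.003 and Gli3 at 0.077. The cause was not tested. Signs also changed for 4 of 270 values in N against control (Ptch1 up to 0.004, Hhip 0.016, Gli3 0.017) and 9 of 270 in CN against N (Ptch1 up to 0.019, Hhip 0.132, Gli3 0.117). All 270 values in each of these comparisons moved by less than the spread between animals. Of 16 alternative values of r with Gli1, 4 moved by 0.2 or more, all with CN library 2 included. The planned comparison of rat members was not run, since no table used here pairs the rat identifiers with symbols. No paired analysis was possible because the replicate numbers were given in the order of the records and pair no animals.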

Other observations

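The mouse library whose label names no injection had 25.5 M (mega) counts. Its levels were 2.90 CPM for Shh, 5.16 for Boc, 104 for Ptch1, 31.3 for Hhip, 15.1 for Smo, 27.5 for Sufu and 5.39 for Gli2, each within the range of the 8 control libraries. Gli1 was at 1.07 CPM, as in the lowest control library, and Gli3 at 34.9 CPM.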
